A study of Xenopus laevis with 6 samples.

Results

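The actin and actomyosin genes described here are 78 of the 11303 genes with their own symbol on a Xenopus laevis expression array. A gene was taken in when its platform symbol marked it as an actin, alpha-actinin, actin-related protein, Arp2/3 subunit, myosin heavy or light chain, unconventional myosin, tropomyosin, cofilin, profilin, anillin or Shroom, or as another regulator of contraction, and each gene stands by its brightest probe set. Xenopus laevis is allotetraploid, so many genes have an L and an S copy, and the copies were counted as separate genes. The symbol rule also took in cflar.S, an inhibitor of caspase-8 that is no cofilin, and it is counted among the 78 but put in no role. The rule gave no member for filamin A or B, the diaphanous formins, actr2, myh14 or myl12a, which are not analysed here.

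Actin filaments grow from monomers that profilin delivers, branch where the Arp2/3 complex nucleates, and are severed by cofilin. Alpha-actinins cross-link them, tropomyosins coat them, and bipolar filaments of myosin II, switched on by phosphorylation of their regulatory light chains, pull on them. In an epithelium this machinery forms a contractile belt under the apical junctions, where Shroom proteins act during apical constriction, and anillin ties actin and myosin together at the cleavage furrow and, in Xenopus embryos, at cell junctions.

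The animal cap is the roof of the blastula, an ectodermal tissue that makes epidermis in isolation. Antisense morpholino oligonucleotides (MO) were injected at the 4-cell stage, caps were taken at stage 9, and RNA was collected at stage 15 from caps kept on their own. ERK3 MO1/2 caps had 40 ng of each of a pair of morpholinos against ERK3, an atypical mitogen-activated protein kinase. TFAP2A MO1/2 caps had 40 ng of each of a pair against TFAP2A, a DNA-binding regulator of ectodermal genes also called AP-2 alpha. Control MO caps had 80 ng of a control morpholino, so every group carried the same total mass of morpholino and there was no uninjected group. Each of the 3 groups had 2 arrays, labelled as biological and independent replicates.

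Values are intensities, the brightness of a probe set after the authors' normalization, and they are comparable between arrays for one probe set but not between genes. Correlations of log2 values, taken over probe sets and so a description only, were 0.9868 to 0.9886 within a group and 0.9622 to 0.9827 between groups. In each group 22 of 27 epidermal marker genes were above the lower quartile of intensity on at least 1 of its arrays, and the summed intensity of the list was 29652.8 and 33796.8 in ERK3 MO1/2 caps, 24835.1 and 23775.5 in TFAP2A MO1/2 caps, and 37015.3 and 38957.8 in Control MO caps. Of the 27, 2 rose and 3 fell in ERK3 MO1/2 caps, which is 18.5% called against 11.8% of all genes. In TFAP2A MO1/2 caps 1 rose and 7 fell, 29.6% against 12.3% of all genes. The keratin krt12.5.S and the cadherin cdh1.S were among those that fell there. Morpholinos that block translation need not lower their target's RNA, and the labels do not say which step these ones block. The tfap2a.L probe set read 1495.2 and 1286.8 in TFAP2A MO1/2 caps and 1125.5 and 753.4 in Control MO caps. For ERK3, 0 probe sets carried its symbol mapk6, and 0 carried the symbol mapk4. The manufacturer's 3′ gapdh control probe set read 42.1 and 84.2 in ERK3 MO1/2 caps, 180.5 and 242.5 in TFAP2A MO1/2 caps and 296.2 and 335.4 in Control MO caps. The part of these differences in the results that follow was not tested.

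The actin cross-linker alpha-actinin-1 was lower in both knockdowns, from both of its gene copies. Cardiac actin actc1.L was called lower in both by 1 of 2 probe sets, at low intensity. Tropomyosin tpm4.L and anillin anln.L were lower in ERK3 MO1/2 caps. Of 2 anln.L probe sets, 1 was also called lower in TFAP2A MO1/2 caps. In TFAP2A MO1/2 caps the Arp2/3 subunit arpc4.S and 1 of 3 probe sets of the subunit arpc1a.S were lower. So were the membrane-tethering myosins myo1c.L and myo1c.S, and shroom1.L. There were rises as well, of 1 member in ERK3 MO1/2 caps (actn3.L) and of 6 in TFAP2A MO1/2 caps. Those 6 were actn2.S, actn4.L, myl4.L, myh9.S, myo5a.L and actr6.L. The brightest probe sets of the cytoplasmic actins, the regulatory light chain myl12b.L, cofilins and profilins did not pass the test in either knockdown.

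A gene was called when limma's Benjamini-Hochberg adjusted p was under 0.05 over all 32539 probe sets tested. In ERK3 MO1/2 against Control MO, 1 of the 78 members rose, 7 fell and 70 did not pass, which is 10.3% called against a background of 11.8% of all genes (3.95% up and 7.88% down), so the share of members called was near that of all genes. In TFAP2A MO1/2 against Control MO, 6 members rose, 9 fell and 63 did not pass, 19.2% against a background of 12.3% (4.91% up and 7.41% down). In ERK3 MO1/2 against TFAP2A MO1/2, 3 members were higher, 4 were lower and 71 did not pass, 8.97% against 5.7% (2.58% up and 3.11% down). At an unadjusted p under 0.05 there were 25, 28 and 19 members in the 3 contrasts, against a background of 30.4%, 30.4% and 23.7% of genes. The median log2 change of the members was -0.02, -0.04 and -0.02 in the 3 contrasts, and that of all genes was 0.01, 0.01 and 0.00. Both knockdowns were set against the same pair of Control MO arrays, so their results are not independent of each other. Both ERK3 MO1/2 arrays lay above both Control MO arrays in 22 members (background 28.7%) and below them in 28 (29.9%). Both TFAP2A MO1/2 arrays lay above the controls in 19 members (29.3%) and below them in 27 (29.6%), and both ERK3 MO1/2 arrays lay above those of TFAP2A MO1/2 in 20 (25.5%) and below them in 23 (26.6%). No difference between these shares was tested. Of the 78 members, 61 were above the lower quartile on at least 1 array, and every call came from these 61. In bulk tissue, fewer cells of a type and less RNA per cell cannot be told apart.

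**Figure D1:**
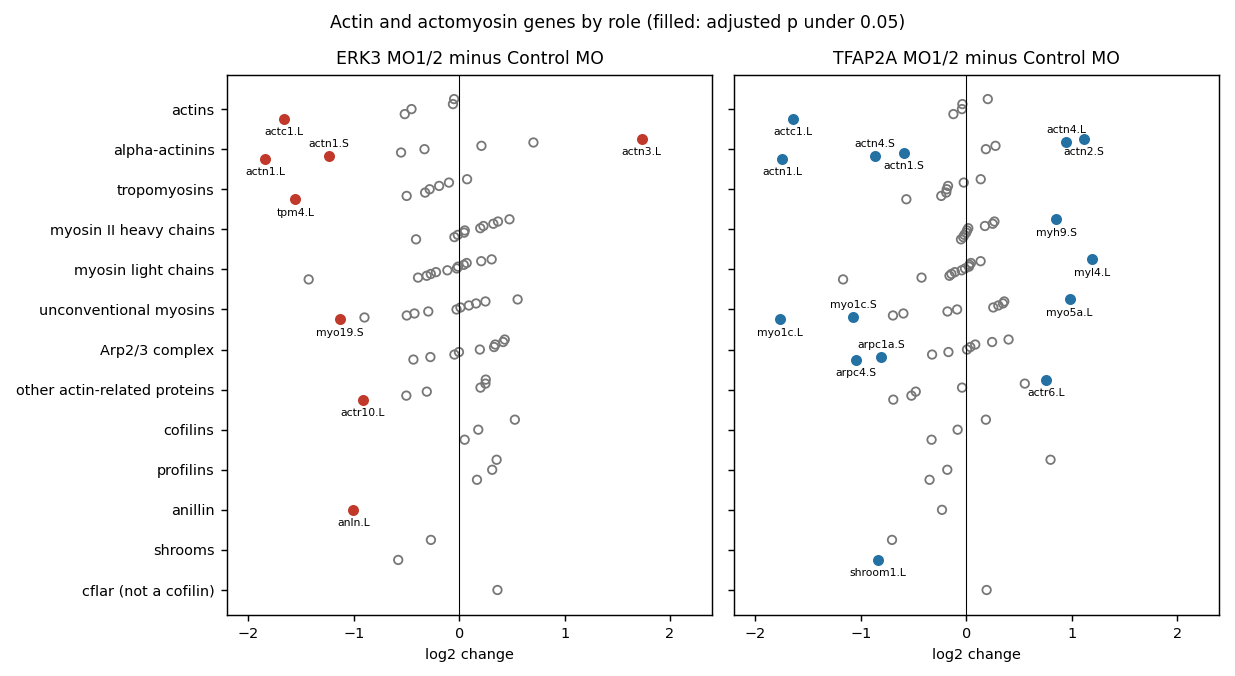
Log2 change of members (horizontal axis) by role (vertical axis) in ERK3 MO1/2 minus Control MO on the left and TFAP2A MO1/2 minus Control MO on the right, with 1 circle per gene and filled circles for an adjusted p under 0.05. The 8 calls in ERK3 MO1/2 caps lie in 6 roles, and the 15 calls in TFAP2A MO1/2 caps lie in 8.

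Of the 5 actins, 1 fell and the others did not pass in either knockdown. The share called was 20% in each, against 11.8% of all genes in ERK3 MO1/2 caps and 12.3% in TFAP2A MO1/2 caps. The cytoplasmic gamma-actin gene actg1.L, a main building block of the non-muscle cytoskeleton, read 3672.4 and 4949.4 in ERK3 MO1/2 caps, 4774.8 and 6016.1 in TFAP2A MO1/2 caps, and 5557.7 and 6119.5 in Control MO caps. Its S copy read 2731.0 and 3846.6 in ERK3 MO1/2 caps, 3977.3 and 5102.4 in TFAP2A MO1/2 caps, and 4508.5 and 4767.0 in Control MO caps. In both copies the ERK3 MO1/2 arrays were below the Control MO arrays, while the TFAP2A MO1/2 arrays overlapped them. The log2 change in ERK3 MO1/2 caps was -0.45 ± 0.20 for actg1.L (adjusted p = 0.205) and -0.52 ± 0.21 for actg1.S (adjusted p = 0.179), where ± is limma's standard error with 2 arrays per group here and below. Beta-actin actb.L, whose symbol has no digit and so falls outside the rule, read 6952.9 and 7933.9 in ERK3 MO1/2 caps, 7670.0 and 8375.5 in TFAP2A MO1/2 caps, and 7985.4 and 8421.1 in Control MO caps. Its change was -0.14 ± 0.13 in ERK3 MO1/2 caps (adjusted p = 0.545) and -0.03 ± 0.13 in TFAP2A MO1/2 caps (adjusted p = 0.915). The manufacturer's 3′ actin control probe set read 6578.3 and 7463.8 in ERK3 MO1/2 caps, 7271.1 and 7931.9 in TFAP2A MO1/2 caps, and 7593.3 and 8025.1 in Control MO caps.

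Cardiac alpha-actin actc1.L, a sarcomeric actin that also marks early Xenopus muscle, read 5.5 and 8.5 in ERK3 MO1/2 caps, 5.9 and 8.2 in TFAP2A MO1/2 caps, and 16.4 and 28.7 in Control MO caps. The probe set read here is of a type whose probes can also match other transcripts. No array of either knockdown reached the Control MO range of actc1.L, although its intensities were low. It fell by 1.66 ± 0.35 on the log2 scale in ERK3 MO1/2 caps (adjusted p = 0.0377) and by 1.64 ± 0.35 in TFAP2A MO1/2 caps (adjusted p = 0.0368). A second probe set of the gene gave -0.65 (adjusted p = 0.119) in ERK3 MO1/2 caps and -0.66 (adjusted p = 0.113) in TFAP2A MO1/2 caps, and both calls were lost on a log2(intensity + 16) scale, and that in ERK3 MO1/2 caps with only the 4 arrays compared in the fit (adjusted p = 0.0602).

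Muscle and mesoderm markers were read beside this actin. Among 31 skeletal and cardiac muscle marker genes, 16 lay under the lower quartile on all arrays, both myog copies among them, and the summed intensity of the list was 489.6 and 473.9 in ERK3 MO1/2 caps, 638.7 and 602.5 in TFAP2A MO1/2 caps, and 614.5 and 706.2 in Control MO caps. In ERK3 MO1/2 caps 1 of the 31 rose and 2 fell (9.68% called, against 11.8% of all genes). The falls were the calsequestrin casq2.S by 1.08 ± 0.21 (adjusted p = 0.0326) and the troponin tnni2.S by 1.22 ± 0.24 (adjusted p = 0.0324). The rise was the troponin tnni3.L, a dim probe set, fitted at 0.68 (adjusted p = 0.032). Of 7 alternative settings that left out no single array, the casq2.S and tnni2.S calls each held in 5. In TFAP2A MO1/2 caps casq2.S alone was called (3.23%, against 12.3% of all genes), and it fell by 1.65 ± 0.21 (adjusted p = 0.0121). The 12 mesoderm marker genes, 3 of them under the lower quartile on all arrays, summed to 110.3 and 131.7 in ERK3 MO1/2 caps, 284.9 and 204.0 in TFAP2A MO1/2 caps, and 265.5 and 218.9 in Control MO caps. Of these 12, 3 fell in ERK3 MO1/2 caps (tbxt.L, tbxt.S and wnt8a.L), which is 25% called against 11.8% of all genes. In TFAP2A MO1/2 caps 0 were called, against 12.3% of all genes, and 2 had an unadjusted p under 0.05. The part of muscle or mesoderm cells in the actc1.L result was not tested.

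Alpha-actinins had the most calls of any role, 3 of 7 members in ERK3 MO1/2 caps and 5 of 7 in TFAP2A MO1/2 caps, in both directions. That is 42.9% and 71.4% called, against 11.8% and 12.3% of all genes, for a role ranked after the calls were known. The TFAP2A MO1/2 calls of the dim actn2.S and actn4.L were lost on the log2(intensity + 16) scale. The non-muscle alpha-actinin actn1.L, which bundles filaments in stress fibres and at cell contacts, read 131.2 and 138.5 in ERK3 MO1/2 caps, 148.1 and 139.4 in TFAP2A MO1/2 caps, and 457.3 and 507.9 in Control MO caps. Both knockdowns lay far below the controls and close to each other. It was 3.57-fold lower in ERK3 MO1/2 caps, a log2 change of -1.84 ± 0.12 (adjusted p = 0.00701), and 3.35-fold lower in TFAP2A MO1/2 caps, a log2 change of -1.75 ± 0.12 (adjusted p = 0.00632). A second actn1.L probe set gave -1.42 (adjusted p = 0.00808) and -1.33 (adjusted p = 0.00827). The direct contrast of the knockdowns was -0.09 ± 0.12 (adjusted p = 0.765).

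The S copy, actn1.S, read 271.2 and 314.1 in ERK3 MO1/2 caps, 445.6 and 464.0 in TFAP2A MO1/2 caps, and 691.3 and 682.4 in Control MO caps. The 3 groups did not overlap, with ERK3 MO1/2 lowest and Control MO highest. The gene fell 2.35-fold in ERK3 MO1/2 caps (adjusted p = 0.0096) and 1.51-fold in TFAP2A MO1/2 caps (adjusted p = 0.0398), which was lost with only the 4 arrays compared in the fit, and the direct contrast just missed the threshold at -0.64 (adjusted p = 0.0521).

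Alpha-actinin-4 is the other non-muscle isoform, and its copies moved apart in TFAP2A MO1/2 caps. The S copy read 253.4 and 306.6 in ERK3 MO1/2 caps, 232.1 and 215.6 in TFAP2A MO1/2 caps, and 389.2 and 428.3 in Control MO caps. Both knockdowns were below the controls, with a log2 change of -0.55 in ERK3 MO1/2 caps (adjusted p = 0.0685) and a called fall of 0.87 ± 0.15 in TFAP2A MO1/2 caps (adjusted p = 0.0213). Another pair of actn4.S probe sets gave -0.50 and -0.38 in TFAP2A MO1/2 caps and did not pass. The dim L copy, actn4.L, read 5.9 and 7.6 in ERK3 MO1/2 caps, 14.7 and 17.8 in TFAP2A MO1/2 caps, and 9.3 and 7.6 in Control MO caps. It rose by 0.94 ± 0.20 in TFAP2A MO1/2 caps (adjusted p = 0.0359), a call lost on the log2(intensity + 16) scale, and was -0.33 in ERK3 MO1/2 caps (adjusted p = 0.342), where its arrays met the control range.

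The sarcomeric isoforms were dim in Control MO caps. actn3.L, known from fast muscle Z-discs, read 27.6 and 33.6 in ERK3 MO1/2 caps, 14.7 and 8.4 in TFAP2A MO1/2 caps, and 7.8 and 10.8 in Control MO caps. Only the ERK3 MO1/2 arrays were clear of the controls, and the gene rose by 1.73 ± 0.31 (adjusted p = 0.0254), the single rise among the members in that knockdown. In TFAP2A MO1/2 caps its change was 0.28 (adjusted p = 0.642), and 2 other probe sets of the gene, with intensities of at most 5.3, gave 0.31 and 0.06 in ERK3 MO1/2 caps and did not pass. actn2.S, another Z-disc isoform, read 9.3 and 7.1 in ERK3 MO1/2 caps, 9.2 and 12.8 in TFAP2A MO1/2 caps, and 4.9 and 5.1 in Control MO caps. The controls lay in the lowest quartile of probe sets, so its rise in TFAP2A MO1/2 caps is given as at least 0.75 on the log2 scale (adjusted p = 0.0285), and this call too was lost on the log2(intensity + 16) scale.

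**Figure D2:**
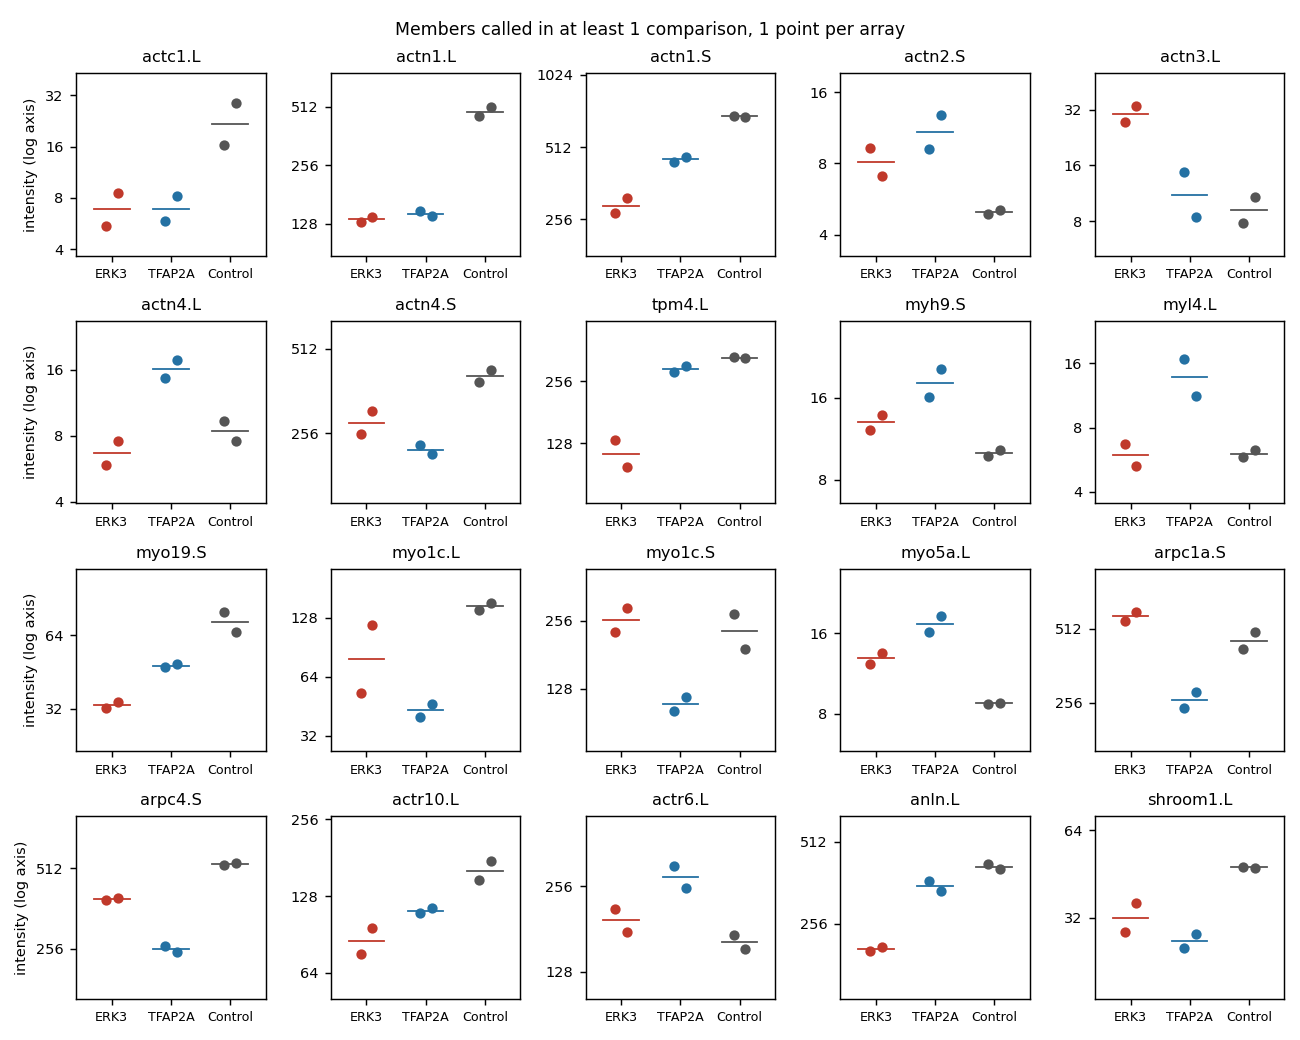
Intensity (log axis) of the 20 members called in at least 1 contrast, with 1 point per array, a line at each group's geometric mean, and the groups ERK3 MO1/2, TFAP2A MO1/2 and Control MO from left to right. The actn1.L arrays of both knockdowns lie between 131.2 and 148.1 and below the Control MO arrays, and the tpm4.L arrays of ERK3 MO1/2 lie below those of both other groups.

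Tropomyosins showed 1 call among 7 members, tpm4.L in ERK3 MO1/2 caps (14.3%, against 11.8% of all genes). This cytoskeletal tropomyosin gene read 132.9 and 97.5 in ERK3 MO1/2 caps, 283.4 and 303.4 in TFAP2A MO1/2 caps, and 337.1 and 332.0 in Control MO caps. It fell 2.94-fold in ERK3 MO1/2 caps, with a standard error of 0.17 on the log2 scale (adjusted p = 0.0101), and in TFAP2A MO1/2 caps its change was -0.19 ± 0.17 (adjusted p = 0.565). A second bright probe set gave -1.76 in ERK3 MO1/2 caps (adjusted p = 0.0157), and a dim one, with intensities of at most 7.3 on every array, gave 0.11. The S copy, tpm4.S, read 911.2 and 1231.3 in ERK3 MO1/2 caps, 1017.2 and 1258.2 in TFAP2A MO1/2 caps, and 1156.8 and 1429.6 in Control MO caps. Its groups overlapped, with changes of -0.28 in ERK3 MO1/2 caps (adjusted p = 0.449) and -0.19 in TFAP2A MO1/2 caps (adjusted p = 0.652). The chosen probe sets of both copies are of the type whose probes can also match other transcripts, so the copies may share signal. The tropomyosins that were not called had log2 differences of -0.50 to 0.07 in ERK3 MO1/2 caps and of -0.57 to 0.14 in TFAP2A MO1/2 caps.

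Among the 10 myosin II heavy chains 1 was called, myh9.S in TFAP2A MO1/2 caps (10%, against 12.3% of all genes). Non-muscle myosin IIA drives cell contraction, and its dim S copy read 12.2 and 13.8 in ERK3 MO1/2 caps, 16.1 and 20.4 in TFAP2A MO1/2 caps, and 9.8 and 10.3 in Control MO caps. Both knockdowns were above the controls. The gene rose by 0.85 ± 0.16 in TFAP2A MO1/2 caps (adjusted p = 0.0277), and its change in ERK3 MO1/2 caps was 0.37 (adjusted p = 0.201).

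For the L copy, myh9.L, the result depended on the probe set. Its brightest probe set read 379.9 and 403.2 in ERK3 MO1/2 caps, 483.4 and 536.4 in TFAP2A MO1/2 caps, and 530.6 and 509.1 in Control MO caps. Its log2 difference was -0.41 ± 0.12 in ERK3 MO1/2 caps (adjusted p = 0.0944) and -0.03 ± 0.12 in TFAP2A MO1/2 caps (adjusted p = 0.919). The other 4 probe sets of the gene gave positive changes, 0.32 to 0.48 in ERK3 MO1/2 caps with no call, and 0.64 to 0.97 in TFAP2A MO1/2 caps with adjusted p-values of 0.0923, 0.0305, 0.016 and 0.0381. Non-muscle myosin IIB, myh10.S, read 38.9 and 71.3 in ERK3 MO1/2 caps, 44.6 and 74.5 in TFAP2A MO1/2 caps, and 44.2 and 58.7 in Control MO caps. Its groups overlapped, and its changes were 0.05 ± 0.37 in ERK3 MO1/2 caps (adjusted p = 0.952) and 0.18 ± 0.37 in TFAP2A MO1/2 caps (adjusted p = 0.824). The remaining 7 heavy chains, smooth muscle myh11 and sarcomeric isoforms, had no call.

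**Figure D3:**
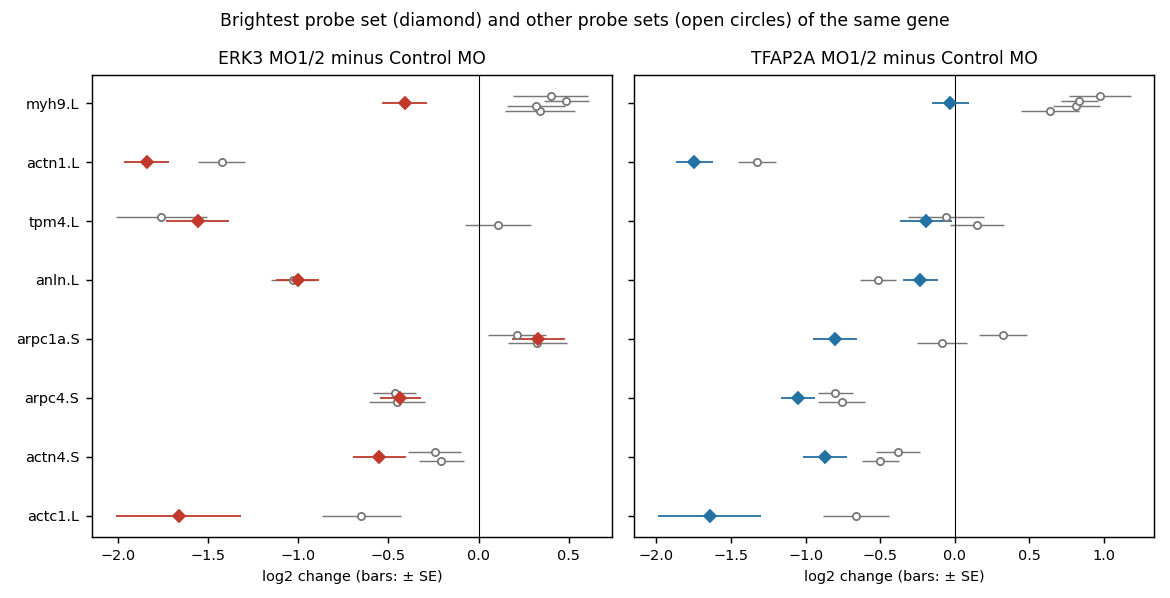
Log2 change with its standard error (horizontal axis) of the brightest probe set (diamond) and of every other probe set (open circles) of 8 genes (vertical axis), for ERK3 MO1/2 minus Control MO on the left and TFAP2A MO1/2 minus Control MO on the right. Both actn1.L and both anln.L probe sets lie below 0 in each panel, while the 4 other myh9.L probe sets lie above 0 and its brightest does not.

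Of the 12 myosin light chains 1 was called against Control MO, in TFAP2A MO1/2 caps (8.33%, against 12.3% of all genes). The regulatory light chain gene myl12b.L, a bright member whose product switches on non-muscle myosin II, read 2515.2 and 2786.9 in ERK3 MO1/2 caps, 2307.3 and 2746.5 in TFAP2A MO1/2 caps, and 2085.9 and 2515.5 in Control MO caps. The groups met or overlapped, with changes of 0.21 ± 0.16 in ERK3 MO1/2 caps (adjusted p = 0.462) and 0.14 ± 0.16 in TFAP2A MO1/2 caps (adjusted p = 0.669). Of its 6 dimmer probe sets, 1 was called, with 6.1 and 5.6 in TFAP2A MO1/2 caps and 8.4 and 8.9 in Control MO caps. Both TFAP2A MO1/2 arrays lay under the lower quartile, so its fall is given as at least 0.40 (adjusted p = 0.0372). The same probe set was at least 0.475 higher in ERK3 MO1/2 than in TFAP2A MO1/2 caps (adjusted p = 0.043). The other 5 gave no call, although some of them were also clear of the controls, above or below them. The other regulatory chain, myl9.L, read 74.5 and 180.3 in ERK3 MO1/2 caps, 132.8 and 144.9 in TFAP2A MO1/2 caps, and 281.3 and 345.3 in Control MO caps. All 4 knockdown arrays were below the controls, but the ERK3 MO1/2 arrays differed widely, and the changes of -1.43 ± 0.40 in ERK3 MO1/2 caps (adjusted p = 0.0755) and -1.17 ± 0.40 in TFAP2A MO1/2 caps (adjusted p = 0.12) did not pass. With 1 array left out at a time, the myl9.L difference ran from -2.06 to -0.79 in ERK3 MO1/2 caps. In TFAP2A MO1/2 caps it ran from -1.32 to -1.02. The S copy, myl9.S, read 23.8 and 35.5 in ERK3 MO1/2 caps, 29.8 and 35.4 in TFAP2A MO1/2 caps, and 25.5 and 48.2 in Control MO caps, with overlapping groups. The called light chain was myl4.L, an embryonic and atrial muscle isoform, which read 6.7 and 5.3 in ERK3 MO1/2 caps, 16.8 and 11.2 in TFAP2A MO1/2 caps, and 5.8 and 6.3 in Control MO caps. Its rise in TFAP2A MO1/2 caps was at least 1.09 on the log2 scale (adjusted p = 0.0293), since the controls lay under the lower quartile. This call was lost on the log2(intensity + 16) scale.

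The 17 members under the lower quartile on all arrays were acta1.S, acta2.L, arpc5l.S, cfl2.L, myh3.S, myh4.L, myh8.L, myh11.L, myh11.S, myh15.L, myl1.L, myl1.S, myl2.S, myl3.L, myl3.S, myl4.S and tpm2.S. Most of these encode isoforms known from skeletal, cardiac or smooth muscle. In the 3 contrasts 0 of the 17 were called, against 11.8%, 12.3% and 5.7% of all genes. At an unadjusted p under 0.05 there were 2, 1 and 1 of them. The 17 were grouped by their low intensity, so the count of 0 is no result about muscle isoforms.

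Unconventional myosins move cargo or link membrane to actin. Of 11 members, 1 fell in ERK3 MO1/2 caps, while 1 rose and 2 fell in TFAP2A MO1/2 caps. These are 9.09% and 27.3% called, against 11.8% and 12.3% of all genes. The mitochondrial myosin myo19.S read 32.2 and 34.2 in ERK3 MO1/2 caps, 47.5 and 48.6 in TFAP2A MO1/2 caps, and 80.1 and 65.8 in Control MO caps. The 3 groups did not overlap. It fell by 1.13 ± 0.14 in ERK3 MO1/2 caps (adjusted p = 0.0121), and in TFAP2A MO1/2 caps its change of -0.60 ± 0.14 just missed the threshold (adjusted p = 0.0502).

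Myosin Ic tethers membrane to cortical actin, and both of its copies fell in TFAP2A MO1/2 caps. The L copy read 52.7 and 116.8 in ERK3 MO1/2 caps, 40.0 and 46.2 in TFAP2A MO1/2 caps, and 140.7 and 152.0 in Control MO caps. It was 3.40-fold lower in TFAP2A MO1/2 caps (adjusted p = 0.0332), whereas the change in ERK3 MO1/2 caps was -0.90 ± 0.36 (adjusted p = 0.17) between arrays that differed widely. The S copy read 227.2 and 289.8 in ERK3 MO1/2 caps, 101.6 and 117.1 in TFAP2A MO1/2 caps, and 273.8 and 192.5 in Control MO caps. It fell by 1.07 ± 0.22 in TFAP2A MO1/2 caps (adjusted p = 0.034), and the ERK3 MO1/2 arrays overlapped the controls at 0.16 ± 0.22 (adjusted p = 0.694). Both myosin Ic calls were lost on the log2(intensity + 16) scale, with adjusted p-values of 0.0656 for myo1c.L and 0.0587 for myo1c.S. With 1 array left out at a time, the myo1c.L difference in ERK3 MO1/2 caps ran from -1.47 to -0.32. Myosin Va, a vesicle motor, moved the other way, and myo5a.L read 12.3 and 13.5 in ERK3 MO1/2 caps, 16.1 and 18.6 in TFAP2A MO1/2 caps, and 8.7 and 8.8 in Control MO caps. It rose by 0.98 ± 0.13 in TFAP2A MO1/2 caps (adjusted p = 0.0136), and its change in ERK3 MO1/2 caps was 0.55 ± 0.13 (adjusted p = 0.0536). The unconventional myosins without a call had log2 differences of -0.90 to 0.55 in ERK3 MO1/2 caps and of -0.70 to 0.36 in TFAP2A MO1/2 caps.

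The 9 Arp2/3 members had 0 calls in ERK3 MO1/2 caps by limma, with 2 at an unadjusted p under 0.05. They had 2 falls in TFAP2A MO1/2 caps. The shares called were 0% and 22.2%, against 11.8% and 12.3% of all genes. arpc4.S, a subunit of the core of this branch-nucleating complex, read 388.6 and 394.8 in ERK3 MO1/2 caps, 262.1 and 249.5 in TFAP2A MO1/2 caps, and 525.0 and 533.2 in Control MO caps. The groups were clear of each other, with TFAP2A MO1/2 lowest. It fell by 1.05 ± 0.12 in TFAP2A MO1/2 caps (adjusted p = 0.00937), and 2 further probe sets gave -0.76 (adjusted p = 0.0353) and -0.80 (adjusted p = 0.0161). The change in ERK3 MO1/2 caps was -0.43 ± 0.12 (adjusted p = 0.0673).

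A second subunit, arpc1a.S, read 552.0 and 600.6 in ERK3 MO1/2 caps, 243.7 and 281.9 in TFAP2A MO1/2 caps, and 422.9 and 495.6 in Control MO caps. It fell by 0.80 ± 0.15 in TFAP2A MO1/2 caps (adjusted p = 0.0266), but 2 other probe sets gave -0.09 and 0.32 without a call, and the mean over its probe sets gave -0.19 (adjusted p = 0.516). The change in ERK3 MO1/2 caps was 0.33 ± 0.15 (adjusted p = 0.215). The other 7 members of the complex had log2 differences of -0.32 to 0.40 in TFAP2A MO1/2 caps, with no call.

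The other actin-related proteins work in dynactin or in chromatin remodelling. Among 6, 1 fell in ERK3 MO1/2 caps and 1 rose in TFAP2A MO1/2 caps. Each is 16.7% called, against 11.8% and 12.3% of all genes. The dynactin subunit actr10.L read 76.1 and 96.1 in ERK3 MO1/2 caps, 110.3 and 114.5 in TFAP2A MO1/2 caps, and 148.1 and 175.3 in Control MO caps. It was 1.89-fold lower in ERK3 MO1/2 caps (adjusted p = 0.0265), a call lost with only the 4 arrays compared in the fit, and its change in TFAP2A MO1/2 caps was -0.52 ± 0.17 (adjusted p = 0.103), with all knockdown arrays below the controls. The chromatin remodelling subunit actr6.L read 213.0 and 177.2 in ERK3 MO1/2 caps, 302.1 and 252.3 in TFAP2A MO1/2 caps, and 172.6 and 154.2 in Control MO caps. It rose by 0.76 ± 0.16 in TFAP2A MO1/2 caps (adjusted p = 0.0382), and in ERK3 MO1/2 caps its difference was 0.25 ± 0.16 (adjusted p = 0.378).

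The filament-turnover members had no call in any contrast with the settings used throughout, though several were close to the threshold. Cofilin cfl1.L, which severs filaments, read 1230.8 and 1223.2 in ERK3 MO1/2 caps, 843.5 and 881.0 in TFAP2A MO1/2 caps, and 1080.4 and 1084.8 in Control MO caps. The 3 groups were clear of each other, with changes of 0.18 ± 0.11 in ERK3 MO1/2 caps (adjusted p = 0.367) and -0.33 ± 0.11 in TFAP2A MO1/2 caps (adjusted p = 0.127), and a direct contrast of 0.51 ± 0.11 (adjusted p = 0.0655). On the log2(intensity + 16) scale cfl1.L was called in TFAP2A MO1/2 against Control MO (adjusted p = 0.0232) and in the direct contrast (adjusted p = 0.019). The log2 difference of its S copy was 0.05 in ERK3 MO1/2 caps and -0.08 in TFAP2A MO1/2 caps. The dim cfl2.L did not pass, and with a variance trend and robust fit it was called in ERK3 MO1/2 caps (adjusted p = 0.0334), where every array of both groups was under the lower quartile. Profilin pfn1.S, a monomer carrier, read 2059.0 and 2091.6 in ERK3 MO1/2 caps, 1624.8 and 1632.5 in TFAP2A MO1/2 caps, and 1718.3 and 1982.1 in Control MO caps. ERK3 MO1/2 lay above the controls and TFAP2A MO1/2 below them, at 0.17 (adjusted p = 0.452) and -0.18 (adjusted p = 0.44). The log2 difference of the L copy, pfn1.L, was 0.31 ± 0.25 in ERK3 MO1/2 caps (adjusted p = 0.477) and -0.35 ± 0.25 in TFAP2A MO1/2 caps (adjusted p = 0.447). Profilin-2, pfn2.L, read 182.3 and 240.9 in ERK3 MO1/2 caps, 255.0 and 318.8 in TFAP2A MO1/2 caps, and 152.2 and 176.4 in Control MO caps, and its change of 0.80 ± 0.20 in TFAP2A MO1/2 caps was close to the threshold (adjusted p = 0.0545) and passed it with a variance trend and robust fit (adjusted p = 0.0411). The brightest probe set of the caspase-8 inhibitor cflar.S gave 0.36 in ERK3 MO1/2 caps (adjusted p = 0.177) and 0.19 in TFAP2A MO1/2 caps (adjusted p = 0.478). Of its 5 dimmer probe sets, 1 rose by 1.27 in ERK3 MO1/2 caps (adjusted p = 0.0309), and another rose by 0.74 in ERK3 MO1/2 caps (adjusted p = 0.0395) and by 0.67 in TFAP2A MO1/2 caps (adjusted p = 0.0475).

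By its brightest probe set, anillin differed between the knockdowns. anln.L read 203.8 and 210.1 in ERK3 MO1/2 caps, 368.8 and 338.8 in TFAP2A MO1/2 caps, and 423.7 and 405.7 in Control MO caps. It fell by 1.002 ± 0.12 on the log2 scale in ERK3 MO1/2 caps (adjusted p = 0.0112), and in TFAP2A MO1/2 caps, also below the controls, its difference was -0.23 ± 0.12 (adjusted p = 0.286). A second probe set gave -1.03 in ERK3 MO1/2 caps (adjusted p = 0.0106) and -0.51 in TFAP2A MO1/2 caps (adjusted p = 0.0495). That probe set was thus called in both knockdowns, and its direct contrast did not pass (adjusted p = 0.0732).

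Of the Shrooms, a family of apical actin-binding proteins, shroom1.L read 28.5 and 35.9 in ERK3 MO1/2 caps, 25.2 and 28.2 in TFAP2A MO1/2 caps, and 47.8 and 47.6 in Control MO caps. All knockdown arrays were below the controls, and it fell by 0.84 ± 0.16 in TFAP2A MO1/2 caps (adjusted p = 0.0269), with -0.58 ± 0.16 in ERK3 MO1/2 caps (adjusted p = 0.07). shroom3.L, which drives apical constriction, was dim at 8.5 and 7.4 in ERK3 MO1/2 caps, 5.9 and 5.8 in TFAP2A MO1/2 caps, and 11.8 and 7.8 in Control MO caps. Neither difference passed, at -0.27 in ERK3 MO1/2 caps (adjusted p = 0.48) and, against the lower quartile under which both TFAP2A MO1/2 arrays lay, -0.54 or lower in TFAP2A MO1/2 caps (adjusted p = 0.0932).

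Set directly against each other, the knockdowns differed in 7 members. tpm4.L was 2.58-fold lower in ERK3 MO1/2 than in TFAP2A MO1/2 caps (adjusted p = 0.0215), actn4.L was lower by 1.27 ± 0.20 on the log2 scale (adjusted p = 0.0284), and anln.L was lower by 0.77 ± 0.12 (adjusted p = 0.0286). The second anln.L probe set gave -0.52 and did not pass (adjusted p = 0.0732), and the second bright tpm4.L probe set gave -1.70 (adjusted p = 0.0261). myl4.L was the fourth lower member, by at least 1.02 (adjusted p = 0.0449). Higher in ERK3 MO1/2 caps were myo1c.S by 1.23 ± 0.22 (adjusted p = 0.0387), arpc1a.S 2.20-fold (adjusted p = 0.0224), and arpc4.S 1.53-fold (adjusted p = 0.0428). The further probe sets of arpc1a.S gave 0.41 and -0.11, and those of arpc4.S 0.31 and 0.34, none of them called. In actn3.L the difference of 1.45 ± 0.31 missed the threshold (adjusted p = 0.0573). With only the 4 arrays of these groups in the fit, limma called 0 of the 78 members in this contrast, with 19 at an unadjusted p under 0.05. That fit takes the spread from fewer arrays, and no share of all genes is given beside its count. With 1 array left out at a time, the difference ran from -1.59 to -1.14 for tpm4.L and from -1.46 to -1.08 for actn4.L. It ran from -0.83 to -0.71 for anln.L and, as fitted, from -1.49 to -0.91 for myl4.L. For myo1c.S the range was 1.06 to 1.41, for arpc1a.S 1.03 to 1.24, and for arpc4.S 0.58 to 0.65.

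**Figure D4:**
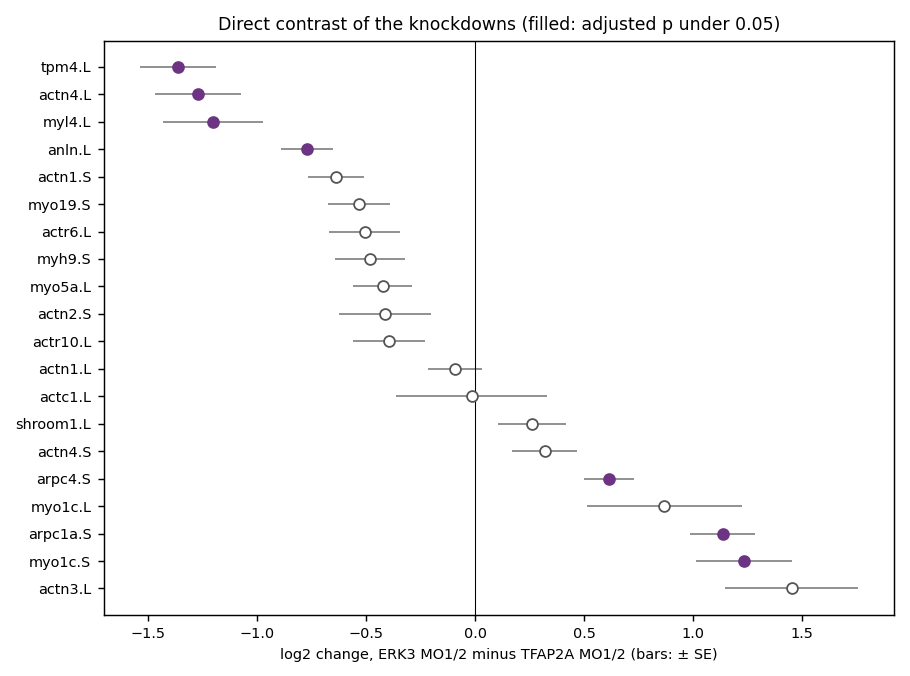
Log2 change with its standard error in ERK3 MO1/2 minus TFAP2A MO1/2 (horizontal axis) for the 20 members called in any contrast (vertical axis), filled where the adjusted p of this contrast is under 0.05. The filled points are 4 genes left of 0, tpm4.L to anln.L, and 3 right of it, arpc4.S, arpc1a.S and myo1c.S, while actn1.L lies near 0.

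The 2 copies of a gene did not always change together. Both copies of 21 member genes were on the array, and in 15 of these pairs each copy was above the lower quartile on at least 1 array. The test of the L minus S difference, chosen after the values were seen, called 1 of the 21 pairs in ERK3 MO1/2 against Control MO (background 6.12% of 2009 pairs), 5 in TFAP2A MO1/2 against Control MO (6.67%) and 2 in the direct contrast (3.19%). In TFAP2A MO1/2 caps the actn1 copies differed by -1.15 ± 0.16 (adjusted p = 0.02), the L copy having fallen more, and the actn4 copies by 1.81 ± 0.23 (adjusted p = 0.0171), where the S copy fell and the L copy rose. The other 3 pairs called there were actn2, myl4 and myh9. The copy myl4.S lay under the lower quartile on all arrays, and actn2.L read 5.3 to 6.8 over the 6 arrays. The L minus S differences of myl4 and actn2 therefore rest mainly on the other copy. In TFAP2A MO1/2 caps the calls of actn2.S, actn4.L and myl4.L were lost on the log2(intensity + 16) scale. The myh9 copies differed in ERK3 MO1/2 caps by -0.78 ± 0.16 (adjusted p = 0.0496) and in TFAP2A MO1/2 caps by -0.88 ± 0.16 (adjusted p = 0.0352), a result that rests on the myh9.L probe set that its 4 fellows oppose. The tpm4 copies, at -1.28 in ERK3 MO1/2 caps, did not pass (adjusted p = 0.073).

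Around these members lie the genes that control filament assembly, in a list of 86 regulators with their copies. The list was fixed with earlier results of these data known. Its 86 genes include beta-actin actb.L, an actin rather than a regulator, which was not called. In ERK3 MO1/2 caps 2 of the 86 rose, 4 fell and 80 did not pass (median -0.03), and in TFAP2A MO1/2 caps 3 rose, 4 fell and 79 did not pass (median -0.04), which is 6.98% and 8.14% called against the 11.8% and 12.3% of all genes. In ERK3 MO1/2 caps arhgdia.L rose by 1.29 ± 0.18 (adjusted p = 0.0142), with 146.0 and 151.3 in ERK3 MO1/2 caps against 66.7 and 55.2 in Control MO caps. Another rise was that of arhgap35.L, by 0.72 ± 0.15 (adjusted p = 0.0359). The monomer-binding and capping twinfilin twf2.S fell by 1.51 ± 0.16 (adjusted p = 0.00933), with 34.7 and 43.2 in ERK3 MO1/2 caps against 115.8 and 105.0 in Control MO caps. The formin fhod1.L fell by 1.34 ± 0.17 (adjusted p = 0.0131).

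Serum response factor srf.L, the transcription factor that reads actin monomer levels through its MRTF partners, read 34.2 and 55.1 in ERK3 MO1/2 caps, 57.2 and 68.6 in TFAP2A MO1/2 caps, and 93.2 and 117.1 in Control MO caps. It fell by 1.27 ± 0.26 in ERK3 MO1/2 caps (adjusted p = 0.0357), and in TFAP2A MO1/2 caps its arrays were also below the controls at -0.74 ± 0.26 (adjusted p = 0.131). The call in ERK3 MO1/2 caps held in 5 of the 7 alternative settings that left out no single array. The fourth fall in ERK3 MO1/2 caps was the WAVE subunit wasf1.S at -0.67 ± 0.14 (adjusted p = 0.0369).

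In TFAP2A MO1/2 caps the Arp2/3 activator wasl.L (N-WASP) read 66.5 and 59.9, against 133.8 and 122.3 in Control MO caps, and fell by 1.02 ± 0.17 (adjusted p = 0.0196). The focal adhesion protein gene zyx.S fell by 0.83 (adjusted p = 0.0313), the SRF coactivator mrtfa.S fell 1.59-fold (adjusted p = 0.0312), and the capping protein subunit capzb.S fell by 0.64 (adjusted p = 0.0318). The cytokinesis gene ect2.L read 60.2 and 71.7 in ERK3 MO1/2 caps, 115.3 and 114.0 in TFAP2A MO1/2 caps, and 60.5 and 65.3 in Control MO caps. It rose by 0.87 ± 0.14 in TFAP2A MO1/2 caps (adjusted p = 0.0188), as did arhgap29.S by 0.94 (adjusted p = 0.0387) and the formin inf2.L by at least 0.73 (adjusted p = 0.0412). Of the 7 alternative settings that left out no single array, the calls of mrtfa.S and arhgap29.S each held in 4, and that of inf2.L in 6. In the direct contrast 4 of the 86 were lower in ERK3 MO1/2 than in TFAP2A MO1/2 caps, twf2.S, fhod1.L and both ect2 copies, and 0 were higher by limma. That is 4.65% called, against 5.7% of all genes. At an unadjusted p under 0.05 in either direction there were 29 of the 86, against 23.7% of all genes.

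**Figure D5:**
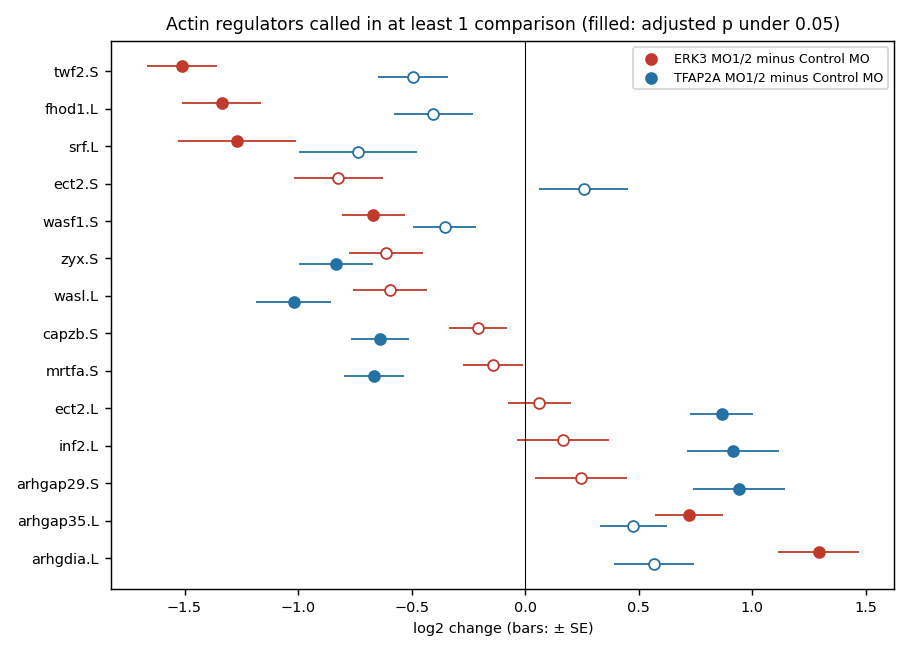
Log2 change with its standard error (horizontal axis) of the 14 regulators called in at least 1 contrast (vertical axis), with ERK3 MO1/2 minus Control MO in red and TFAP2A MO1/2 minus Control MO in blue, filled where the adjusted p is under 0.05. The largest fall is twf2.S and the largest rise arhgdia.L, both in ERK3 MO1/2 caps.

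With 2 arrays per group, a fit without 1 of them leaves a group with a single array and takes the spread from fewer arrays. Whether a call leans on a single array cannot be told from such a fit, so only the log2 differences are given. In ERK3 MO1/2 caps they ran from -1.91 to -1.76 for actn1.L and from -1.03 to -0.97 for anln.L. Ranges were wider for tpm4.L (-1.78 to -1.33), actc1.L (-2.07 to -1.255) and actn3.L (1.49 to 1.97). In TFAP2A MO1/2 caps they ran from -1.82 to -1.67 for actn1.L and from -1.085 to -1.014 for arpc4.S. There too, ranges were wider for actc1.L (-2.05 to -1.24) and myo1c.S (-1.33 to -0.82).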

How the data were processed

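The authors' deposited values are probe set intensity values of a GeneChip array for the Xenopus laevis genome (version 2.0), made by robust multiarray average (RMA) in Expression Console from images read with GeneChip Operating Software 1.4, per the series' design text. The genome build was not given in the sources used here. Since RMA aligns the arrays' distributions, a change shared by most transcripts would not show. Intensity ran from 2.51 to 14672, a linear scale, and its log2 was taken with no added constant. The number of arrays, 2 per group, limits the precision.

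Symbols came from a platform annotation, and all 78 members matched RefSeq (assembly Xenopus_laevis_v10.1, names only). Of the members, 56 had 1 probe set and 22 several. A further 6 probe sets with several symbols were left out. The log2 values of 32539 probe sets (96 controls left out) were fitted with limma 3.58.1 in R 4.3.3 (lmFit and eBayes on all 6 arrays, a mean for each group), two-sided, Benjamini-Hochberg adjusted per contrast. These p-values rest on the spread of arrays labelled as independent replicates. For a group with both arrays in the lowest quartile of probe sets, the change was bounded ("at least") against that quartile. With 2 arrays against 2, an exact permutation test cannot go below 0.333.

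Members called in any contrast were named, and also, whatever they did, non-muscle myosin II, its regulatory light chains, Shrooms, anillin, cofilins and profilins. Values of a further member that this rule takes are not reported here, and the members it does not take are given by counts or ranges. The members and lists were chosen with earlier results of these data known. The marker lists covered epidermis, muscle, mesoderm, neural tissue (summed intensity 825.3 and 1084.0 in ERK3 MO1/2 caps, 992.0 and 1073.4 in TFAP2A MO1/2 caps, 1252.0 and 1451.3 in Control MO caps) and leukocytes (207.7 and 401.2, 293.7 and 390.0, and 336.8 and 454.6 in the same order). Alternatives changed the log2 constant, normalization, dim probe sets, variance model, arrays, replicate number and probe set choice.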

Additional observations from a re-analysis of the deposited data

Results flagged for a closer look

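The results here differed between the knockdowns when ERK3 MO1/2 and TFAP2A MO1/2 caps were tested directly against each other with limma, each by its log2 difference. Among the members, tpm4.L was lower in ERK3 MO1/2 caps at -1.365, actn4.L at -1.274, myl4.L at -1.203 (fitted, at least -1.02 against the lower quartile) and anln.L at -0.772. Higher in ERK3 MO1/2 caps were myo1c.S at 1.234, arpc1a.S at 1.135 and arpc4.S at 0.615. Among the regulators, ect2.S was lower at -1.081, twf2.S at -1.017, fhod1.L at -0.932 and ect2.L at -0.803.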

How the results depend on the processing

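The limits are 2 arrays per group, too few to tell whether a call leans on 1 of them, and dim members. With the replicate number as a replicate block, the members called were 21 in ERK3 MO1/2 against Control MO (8 without it), 24 in TFAP2A MO1/2 against Control MO (15) and 14 in the direct contrast (7), with myl9.L called in both knockdowns (adjusted p = 0.0105 and 0.0206), pfn2.L in TFAP2A MO1/2 caps (0.00523), cfl2.L in ERK3 MO1/2 caps (0.0377) and cfl1.L in the direct contrast (0.0319). Deviations of same-numbered arrays, taken over all probe sets, correlated at 0.595 (ERK3 and TFAP2A), 0.535 (ERK3 and Control) and 0.545 (TFAP2A and Control). The labels do not say what the number stands for, and with only 2 numbers these correlations cannot settle it. The fit used throughout leaves any variation shared by same-numbered arrays in its error. Leaving out 1 array gave medians of the members of -0.066 to 0.009, -0.080 to -0.038 and -0.039 to 0.003 in the 3 contrasts. With only the 4 arrays compared, the calls were 6, 16 and 0. The other settings gave 8 to 10, 12 to 16 and 5 to 10 calls, and without cflar.S, left out after seeing the data, 8, 15 and 7. No share of all genes is given beside the counts in the alternative settings, so those counts do not set the members apart. Over the named members, called regulators and called muscle or mesoderm markers, the replicate block gained 32 calls and lost 0. In 1 setting only the 58 members whose mean over all arrays was above the lower quartile of such means were kept. There the members' median in ERK3 MO1/2 against Control MO was -0.229. Over the 61 members above the quartile on at least 1 array it was -0.045. No median of all genes is given beside these medians, so they do not set the members apart. The mean over probe sets turned myh9.L in TFAP2A MO1/2 against Control MO to 0.65 (adjusted p = 0.0346). A log2(intensity + 16) scale ended the calls of actc1.L in both knockdowns and, in TFAP2A MO1/2 caps, those of actn2.S, actn4.L, myl4.L, myo1c.L and myo1c.S. The causes were not tested.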
